A study of Mus musculus with 11 samples.

Results

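The DUSP, Sprouty and Spred feedback inhibitors examined here were 10 genes, taken by their symbols from the 14974 genes listed for the anterior cingulate cortex (ACC). They comprised 7 dual-specificity phosphatases (Dusp1, Dusp4, Dusp5, Dusp6, Dusp7, Dusp8 and Dusp14) and 3 adaptor-type inhibitors (Spry2, Spry4 and Spred1), and all 10 passed the expression filter of a mean of at least 0.1 FPKM. The RNA came from the ACC, a prefrontal area, of adult wild-type C57BL/6 mice (C57BL/6J in the study's methods), and each library was made from 1 mouse. The 6 Trained mice (3 female, 3 male) had learned to press a lever for food pellets on fixed ratio schedules that asked for more presses per pellet in steps. The 5 Untrained mice (3 female, 2 male) were also food-restricted and spent matching sessions in the chambers, where the pellets were free. Tissue of both groups was dissected within 1 h after the last session, and a further untrained male had been left out by the authors for its low number of reads. The labels number the Trained libraries 1, 2, 3, 12, 13 and 14 and the Untrained libraries 5, 6, 10, 16 and 17. The question was whether transcripts of these inhibitors differed after instrumental training, in whole tissue in which all cell types were mixed.

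In many cells, growth factor receptors and calcium entry activate RAS, which drives the kinases RAF, MEK and ERK in turn. ERK then switches on transcription of its own inhibitors, so that the signal is limited in time. DUSPs remove phosphate from the activation loop of MAP kinases. Dusp1, Dusp4 and Dusp5 are nuclear enzymes, of which Dusp5 acts on ERK and Dusp1 on p38, JNK and ERK. Dusp6 and Dusp7 act on ERK in the cytoplasm, Dusp8 acts mainly on JNK and p38, and Dusp14 is a small atypical member without the kinase-binding domain. Sprouty and Spred proteins act higher up, between the receptor and RAF, and Spred1 brings the RAS brake neurofibromin to the membrane. In neurons, Dusp1, Dusp5 and Dusp6 are known as genes that synaptic activity can induce.

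The promoters are shown first because the factors that carry activity and ERK signals to genes bind short known motifs. RefSeq windows (build GRCm38.p6) ran from 250 bases before to 50 after a listed start, 5′ to 3′ on the strand of the gene. They matched 8 of the 10 genes, and Dusp4 and Spry4 had no entry. For Dusp7, Dusp8 and Dusp14 that start lay inside the gene span rather than at its first base. Both strands were searched for the cAMP response element TGACGTCA, its short form TGACG (which lies within the full element), the AP-1 site TGANTCA, the EGR site GCGNGGGCG and the CArG box of serum response factor. Only 4 windows are printed, with every match in capitals. Dusp1 (chr17:26508423-26508722, minus strand) and Dusp8 (chr7:142095235-142095534, minus strand) are shown for their cAMP response elements, Dusp5 (chr19:53528895-53529194, plus strand) for its CArG boxes, and Dusp6 (chr10:99262981-99263280, plus strand) because it had the largest difference between the groups after Dusp1 and no match.
Dusp1: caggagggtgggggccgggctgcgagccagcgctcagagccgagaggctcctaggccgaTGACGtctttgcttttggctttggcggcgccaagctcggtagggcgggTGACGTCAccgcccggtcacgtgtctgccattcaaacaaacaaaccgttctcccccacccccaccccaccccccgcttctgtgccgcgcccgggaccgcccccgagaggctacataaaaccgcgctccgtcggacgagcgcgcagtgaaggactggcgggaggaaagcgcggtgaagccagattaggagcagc
Dusp5: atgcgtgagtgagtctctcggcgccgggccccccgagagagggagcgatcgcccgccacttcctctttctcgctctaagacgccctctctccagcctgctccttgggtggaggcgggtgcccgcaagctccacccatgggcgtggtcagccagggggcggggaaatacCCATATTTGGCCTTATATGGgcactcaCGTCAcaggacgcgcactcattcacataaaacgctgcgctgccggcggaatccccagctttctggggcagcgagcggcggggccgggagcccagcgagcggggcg
Dusp6: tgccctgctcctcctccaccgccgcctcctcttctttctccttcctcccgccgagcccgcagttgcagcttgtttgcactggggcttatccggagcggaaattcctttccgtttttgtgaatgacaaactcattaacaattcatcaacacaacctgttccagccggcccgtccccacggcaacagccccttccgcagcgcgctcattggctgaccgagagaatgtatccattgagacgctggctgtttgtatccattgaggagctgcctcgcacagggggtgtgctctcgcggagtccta
Dusp8: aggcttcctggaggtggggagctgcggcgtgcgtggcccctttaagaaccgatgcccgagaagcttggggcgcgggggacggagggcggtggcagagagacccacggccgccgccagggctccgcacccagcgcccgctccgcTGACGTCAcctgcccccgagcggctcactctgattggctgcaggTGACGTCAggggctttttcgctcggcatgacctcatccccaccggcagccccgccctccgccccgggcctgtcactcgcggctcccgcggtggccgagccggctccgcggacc

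The full cAMP response element was present in 2 of 8 windows, against 1.79% of all 32851 RefSeq windows and 2.91% of the 14379 windows of genes tested here. Dusp1 held it once, at positions -143 to -136, counted from the start on which the window was set as 0. Dusp8 held 2 copies, at -107 to -100 and -63 to -56, both inside its gene span. The short form was in 3 of 8 windows (Dusp1, Dusp5 and Dusp8), against 20.8% of all windows and 29.3% of those of tested genes. Dusp5 held 2 CArG boxes end to end, at -82 to -73 and -72 to -63, and a CArG box was in 1 of 8 windows against 1.63% of all and 1.38% of those of tested genes. The AP-1 site was in 0 of 8 windows (7.81% of all and 5.13% of those of tested genes) and the EGR site in 0 of 8 (5.55% and 10.3%). The 8 windows were rich in G and C, with a median of 68.3% against 52.7% for all windows and 60.7% for those of tested genes. A match of letters is a description of the sequence, and binding was not measured in these mice.

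Levels are given in FPKM, fragments scaled to transcript length and to library size, so that genes can be set side by side. The genes fell into an upper and a lower tier of abundance. In Trained mice, Dusp14 had the highest mean level (56.2 ± 9.18 FPKM, SD, n = 6), followed by Dusp1 (53.2 ± 18.8), Dusp8 (48.0 ± 1.04), Dusp6 (45.6 ± 2.69), Dusp7 (40.7 ± 1.95), Spry2 (39.7 ± 4.14) and Spred1 (37.2 ± 7.15). Each of these 7 overlapped its neighbour in that order across libraries. All 6 Trained libraries then separated Spred1 from Dusp5 (10.7 ± 1.52 FPKM), which was followed by Dusp4 (7.46 ± 1.72) and Spry4 (6.63 ± 0.604). The same 3 genes formed the lower tier in Untrained mice, where the order of the upper tier was Dusp14, Dusp8, Spred1, Dusp7, Spry2, Dusp6 and Dusp1. By mean, Dusp1 held rank 2 in Trained and rank 7 in Untrained mice, but it exceeded Dusp8 in only 2 of the 6 Trained libraries. Over all 11 libraries, the upper 7 genes lay between percentiles 87.7 and 91.8 of listed genes, and the lower 3 between percentiles 44.9 and 56.2.

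**Figure D1:**
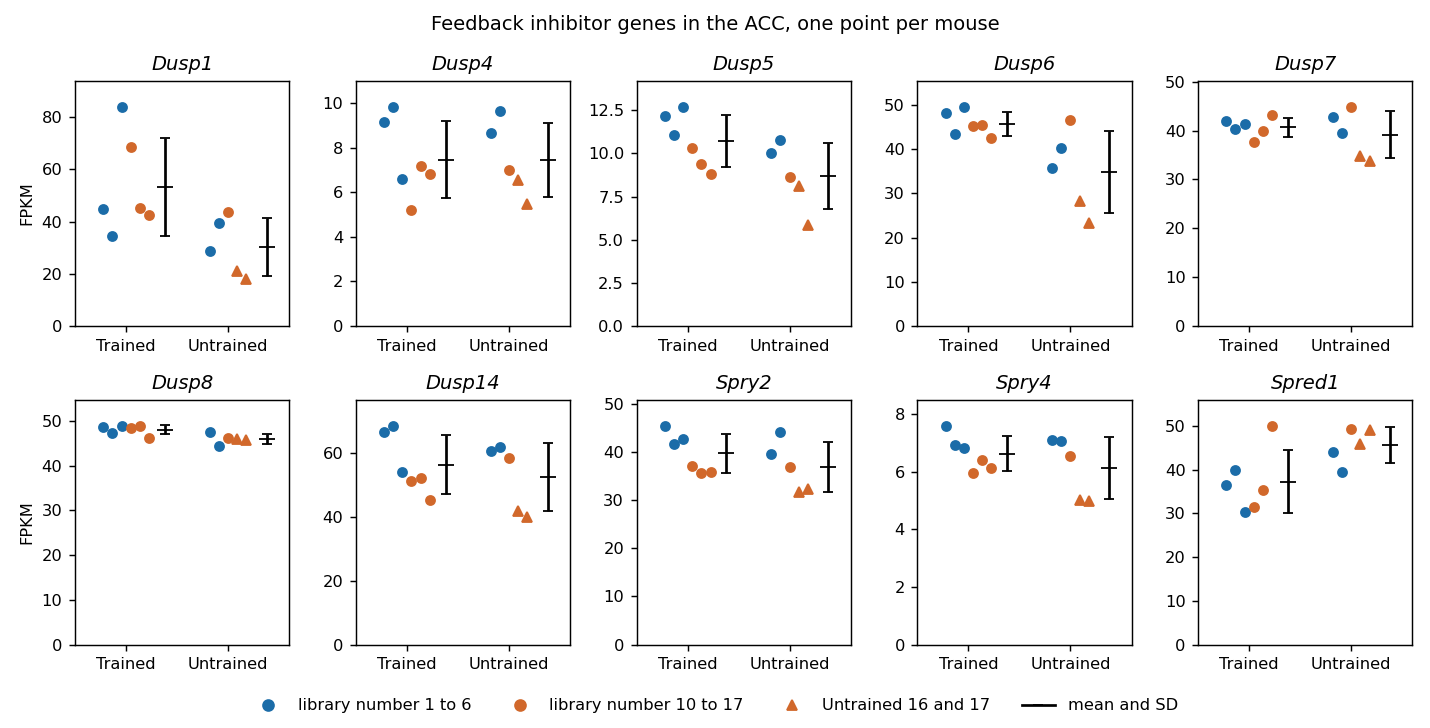
FPKM (vertical axis, from 0) of each of the 10 genes, with 1 point per mouse, Trained on the left and Untrained on the right. Colour gives the library number range, triangles mark Untrained 16 and 17, and black bars are mean and SD. Untrained 16 and 17 were the lowest libraries for 7 of the 10 genes, and no gene had groups free of overlap.

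At an unadjusted limma p under 0.05, 3 genes were higher in Trained than in Untrained mice (Dusp1, Dusp6 and Dusp5) and 1 was lower (Spred1). Among all 14936 genes tested, 4.13% were higher (617 genes) and 4.2% lower (628 genes) by the same rule. No gene, within this family or outside it, had a Benjamini-Hochberg adjusted p under 0.05 (0% of genes), and the lowest adjusted p of any gene was 0.334. By limma-voom on the recovered fragment counts 0 genes also passed an adjusted p of 0.05, and 1193 passed an unadjusted p of 0.05, against 1245 in the test of log2 FPKM. The mean was higher in Trained mice for 8 of the 10 genes, against 49.1% of all genes tested, and the median log2 difference was 0.11, against -0.00 for all genes. The groups were free of overlap for 0 of the 10 genes, where 0.375% of all genes lay wholly higher and 0.388% wholly lower in Trained mice. In bulk tissue, a lower level from fewer cells of a type and one from less RNA per cell cannot be told apart.

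**Figure D2:**
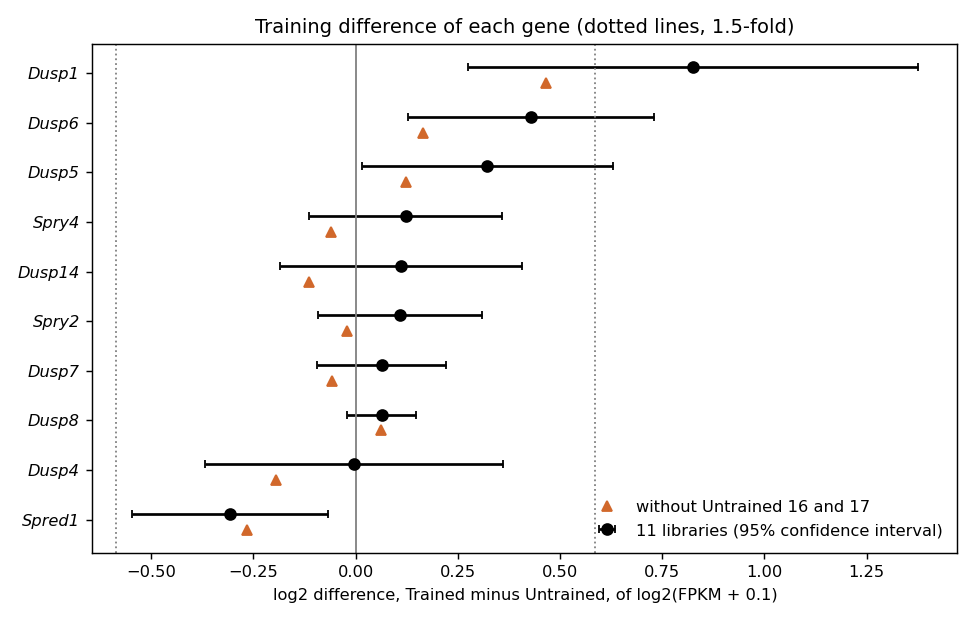
Log2 difference, Trained minus Untrained, of each gene (black points, with 95% confidence intervals from limma over 11 libraries) and the same difference without Untrained 16 and 17 (orange triangles). Dotted lines mark 1.5-fold. The intervals of Dusp1, Dusp6, Dusp5 and Spred1 left out 0, and the triangles of Dusp7, Dusp14, Spry2 and Spry4 lay below 0 while their points lay above it.

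Dusp1, the nuclear phosphatase that inactivates p38, JNK and ERK, had the largest difference of the family. It was measured at 34.4 FPKM in the lowest Trained library (Trained 2), a median of 44.99 and 83.7 in the highest (Trained 3), against 28.6, 39.5, 43.7, 21.2 and 18.1 FPKM in Untrained 5, 6, 10, 16 and 17. Trained 3 and Trained 12 stood well above the others, Untrained 16 and 17 well below, and 4 of the 6 Trained libraries exceeded every Untrained library. The difference was 0.83 on the log2 scale (SE 0.255, 95% confidence interval 0.28 to 1.38), or 1.77-fold, with a limma p of 0.0063 and a Benjamini-Hochberg adjusted p of 0.537. The exact permutation test over all 462 ways to divide 11 libraries into 6 and 5 gave a two-sided p of 0.0303. The thresholds of the study, 1.5-fold or more with an unadjusted p under 0.01, were applied here to limma on log2 FPKM, where the study used edgeR. Of all genes, 0.147% passed them as higher and 0.134% as lower, and Dusp1 was the only one of the 10 genes to pass. That call was lost when Trained 3, Trained 12, Untrained 5, Untrained 16 or Untrained 17 was left out (p 0.0136, 0.0161, 0.0126, 0.0195 and 0.0210 by limma, in that order). Without Untrained 16 and 17 together the difference was 0.47 with a limma p of 0.0855. Trained 3 also had the highest summed oligodendrocyte markers (1054 FPKM), and without it Dusp1 differed by 0.68. Exons of Dusp1 share 11 bases with Ergic1 on the opposite strand.

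Dusp6, the cytoplasmic phosphatase of ERK, had the lowest ratio of Trained to Untrained spread of the 10 genes. The 6 Trained libraries lay between 42.5 FPKM (Trained 14) and 49.4 (Trained 3) with a median of 45.3, against 35.7, 40.3, 46.6, 28.3 and 23.3 FPKM in Untrained 5, 6, 10, 16 and 17. Untrained 10 fell inside the Trained range, and the other 4 Untrained libraries lay below every Trained library. The difference was 0.43 (SE 0.140, 95% confidence interval 0.13 to 0.73), or 1.35-fold, with a limma p of 0.0087, a Benjamini-Hochberg adjusted p of 0.537 and an exact permutation p of 0.0152. The SD of its log2 values was 0.0843 in Trained and 0.398 in Untrained mice, a ratio of 0.212. Leaving out Untrained 10 made Dusp6 free of overlap, which follows from that choice of library. The share of all genes free of overlap without Untrained 10 is not given here. Leaving out Untrained 16 and 17 gave 0.17 with a limma p of 0.0707.

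Dusp5, the nuclear phosphatase specific to ERK, whose promoter held the CArG boxes printed above, was a low-tier gene. It was measured at 8.82 (Trained 14), a median of 10.7 and 12.7 FPKM (Trained 3) in Trained mice, against 10.03, 10.8, 8.64, 8.12 and 5.82 FPKM in Untrained 5, 6, 10, 16 and 17. The groups overlapped broadly, with 3 Trained libraries above every Untrained library and 3 Untrained libraries below every Trained library. The difference was 0.32 (SE 0.143, 95% confidence interval 0.02 to 0.63) with a limma p of 0.0409, a Benjamini-Hochberg adjusted p of 0.587 and an exact permutation p of 0.0714. It was the least firmly called of the 4, losing its call in 11 of 28 alternatives and falling to 0.12 (limma p 0.329) without Untrained 16 and 17. Without Untrained 17 alone it was 0.19 (limma p 0.123). Counting was also thinnest here, at 96 to 346 fragments per library, and the 96 of Untrained 17 carry a counting error of 10.2%. The transcript length used by the authors was 1155 bases, 46.7% of the exon bases of GENCODE M21, and 547 exon bases overlap AC137853.2 on the opposite strand, and how strand was treated in counting is not stated in the methods.

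Spred1, which recruits neurofibromin to restrain RAS, was the only member lower in Trained mice past an unadjusted p of 0.05. Its levels ran between 30.3 FPKM (Trained 3) and 49.997 (Trained 14) with a median of 35.9 in Trained mice, against 43.9, 39.5, 49.3, 45.9 and 49.1 FPKM in Untrained 5, 6, 10, 16 and 17. Trained 14 was the highest of all 11 libraries, while 4 Trained libraries lay below every Untrained library. The difference was -0.31 (SE 0.112, 95% confidence interval -0.55 to -0.07), with a limma p of 0.0161, a Benjamini-Hochberg adjusted p of 0.551 and an exact permutation p of 0.0498. Without Trained 14 it was -0.40 (limma p 0.000371). Without Untrained 16 and 17 it was -0.26 (limma p 0.0825). Spred1 had the most fragments of the family, 4401 to 7649 per library, and was the only gene besides Dusp4 to vary more in Trained than in Untrained mice.

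Dusp8, which acts mainly on JNK and p38, was the steadiest gene of the family and its promoter window held 2 cAMP response elements. It lay between 46.2 (Trained 14) and 48.9 FPKM (Trained 13) with a median of 48.4 in Trained mice, against 47.4, 44.4, 46.2, 46.0 and 45.6 FPKM in Untrained 5, 6, 10, 16 and 17. Apart from Untrained 5, every Untrained library was below every Trained library, the nearest at 46.19 FPKM in Untrained 10 against 46.23 in Trained 14. Exons of Dusp8 share 66 bases with Gm32786 on the opposite strand. The mean was 1.05-fold higher in Trained mice (log2 difference 0.06, SE 0.0390, 95% confidence interval -0.02 to 0.15). Its limma p, which draws the spread of each gene towards that of genes of like abundance, was 0.126, while the exact permutation test, which uses only its own values, gave 0.0130. Unadjusted p-values of the 10 exact tests were under 0.05 for Dusp1, Dusp6, Dusp8 and Spred1, and those of limma for Dusp1, Dusp5, Dusp6 and Spred1. By the same exact permutation rule, 4.12% of all genes tested were higher and 4.41% lower in Trained mice.

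The remaining 5 genes did not pass either test. Dusp14, the atypical phosphatase, ran between 45.3 and 68.4 FPKM (median 52.9) in Trained mice, against 39.8 to 61.6 (median 58.3) in Untrained mice, with a log2 difference of 0.11 (95% confidence interval -0.19 to 0.41). Dusp7, the close relative of Dusp6, ran between 37.6 and 43.2 FPKM (median 40.8) in Trained and 33.8 to 44.8 (median 39.6) in Untrained mice, with a difference of 0.06 (-0.09 to 0.22). For both genes the 2 groups overlapped over most of their ranges. Spry2, the Sprouty with the higher level, ran between 35.5 and 45.4 FPKM (median 39.3) in Trained and 31.7 to 44.2 (median 36.8) in Untrained mice, with a difference of 0.11 (-0.09 to 0.31). Spry4 ran between 5.95 and 7.59 FPKM (median 6.597) in Trained and 4.96 to 7.09 (median 6.53) in Untrained mice, with a difference of 0.12 (-0.11 to 0.36). Dusp4, the nuclear phosphatase most like Dusp1, ran between 5.20 and 9.82 FPKM (median 6.997) in Trained and 5.49 to 9.64 (median 7.01) in Untrained mice, with a difference of -0.00 (-0.37 to 0.36). The 5 intervals left out a 1.5-fold difference in either direction. Without Untrained 16 and 17 the signs of Dusp7 (-0.06), Dusp14 (-0.11), Spry2 (-0.02) and Spry4 (-0.06) were turned round.

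Untrained 16 and 17 stood apart for most of the 10 genes. They were the lowest 2 of all 11 libraries for 7 of the 10 genes (Dusp1, Dusp5, Dusp6, Dusp7, Dusp14, Spry2 and Spry4), a pattern shown by 5.20% of all genes tested. That share is for this pair alone, and other pairs of libraries were not counted. Untrained 17 alone was the lowest library for 6 of the 10 genes, against 9.74% of all genes, and it was also the shallowest library, with 14.4 M fragments in listed genes. Untrained 16, with 19.0 M fragments, was not. Without both libraries 0 of the 10 genes passed an unadjusted limma p of 0.05 in either direction. That fit had 6 Trained and 3 Untrained libraries, and 425 genes were higher and 432 lower by that rule. The pair was the lowest for 7 of these same genes, so leaving it out raises their Untrained means by construction. Spred1 moved little, at -0.26 (SE 0.139) without the pair against -0.31 (SE 0.112) with it. What set these libraries apart was not tested.

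**Figure D3:**
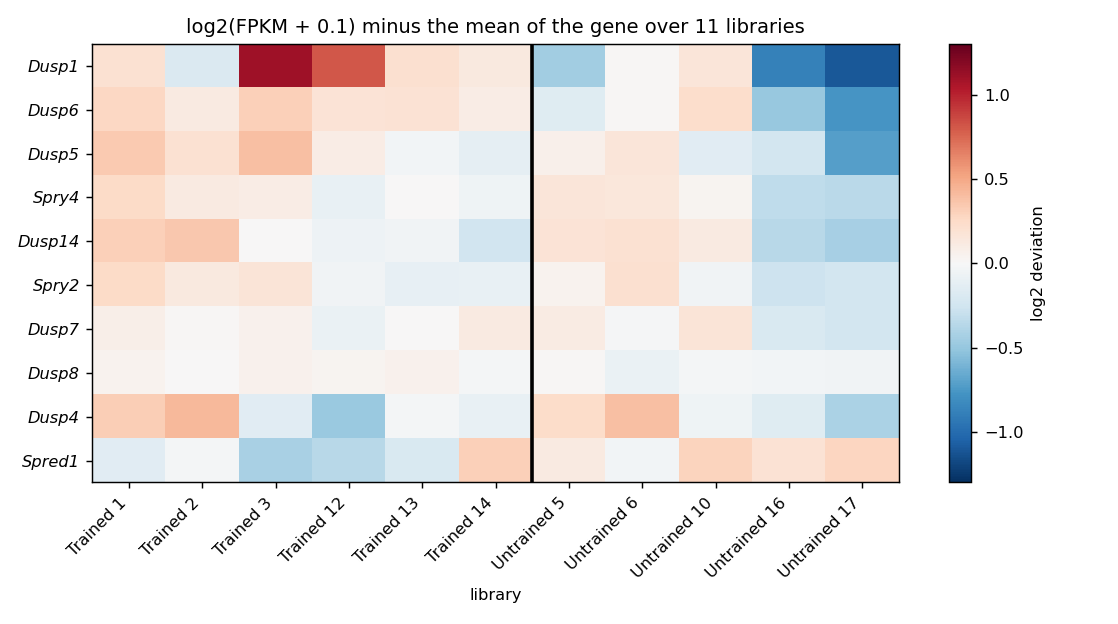
Log2(FPKM + 0.1) of each gene minus its mean over the 11 libraries (colour, red above and blue below the mean), with Trained libraries left of the black line and Untrained libraries right of it. Genes run down the page by their difference. Dusp1 was highest in Trained 3 and Trained 12, and 7 genes were lowest in Untrained 16 and 17, while Spred1 was above its mean there.

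Spread within a group was smaller in Trained mice for 8 of the 10 genes, against 57.7% of all genes, with a median ratio of the log2 SDs of 0.745, against 0.907 for all genes. Dusp6 (0.212), Dusp7 (0.392), Spry4 (0.501) and Dusp5 (0.597) had the lowest ratios, and Spred1 (1.98) and Dusp4 (1.04) were above 1. No test was made of these ratios. Dusp1 varied most in both groups, with a coefficient of variation of 35.4% in Trained and 36.9% in Untrained mice. Dusp8 varied least, at 2.17% in Trained and 2.39% in Untrained mice.

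A further difference ran along the library numbers rather than the groups. In a limma fit with both terms, 5 of the 10 genes were lower in libraries 10 to 17 than in libraries 1 to 6 at a Benjamini-Hochberg adjusted p under 0.05, against 2.95% of all genes, and 0 were higher, against 6.56% of all genes. They were Dusp4 (log2 difference -0.46, SE 0.116), Dusp5 (-0.40, SE 0.0950), Dusp14 (-0.37, SE 0.0952), Spry2 (-0.28, SE 0.0522) and Spry4 (-0.28, SE 0.0796), with adjusted p between 0.00725 and 0.0453. Spry2 averaged 36.1 FPKM in Trained 12 to 14 and 43.2 in Trained 1 to 3, and 33.6 in Untrained 10 to 17 and 41.8 in Untrained 5 and 6. Spry2 and Spry4 were free of overlap between the number ranges, at 31.7 to 37.0 FPKM in libraries 10 to 17 against 39.4 to 45.4 in libraries 1 to 6 for Spry2. For Spry4 the ranges were 4.96 to 6.53 FPKM in libraries 10 to 17 and 6.81 to 7.59 in libraries 1 to 6. Dusp1, Dusp6, Dusp7, Dusp8 and Spred1 did not pass this test (adjusted p 0.367 to 0.939). The labels do not say what the numbers stand for. All libraries 1 to 6 were female, and libraries 10 to 17 were male except Untrained 17, so number and sex can hardly be told apart. For the 5 genes, Untrained 17 lay below every library of 1 to 6, for Spry2 at 32.2 FPKM. It was also the lowest of all 11 libraries for 6 of the 10 genes, and this 1 female library cannot tell number from sex. In a limma fit with sex in place of number, the adjusted p for sex of the 5 genes were 0.122 to 0.406. A fit with number and sex together was not made.

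The training difference was also taken within each number range, with its spread estimated either in a separate limma fit of those libraries or in a limma fit over all 11. Dusp1 differed by 0.99 in libraries 10 to 17 (limma p 0.0102 in the separate fit and 0.0155 over all libraries) and by 0.59 in libraries 1 to 6 (0.0899 and 0.158). Dusp6 differed by 0.50 in libraries 10 to 17 (limma p 0.0423 in the separate fit and 0.0192 over all libraries) and by 0.30 in libraries 1 to 6 (0.00215 and 0.165). Dusp5 differed by 0.35 in libraries 10 to 17 (limma p 0.0464 in the separate fit and 0.0190 over all libraries) and by 0.20 in libraries 1 to 6 (0.0296 and 0.196). Spred1 differed by -0.33 in libraries 10 to 17 (limma p 0.0558 in the separate fit and 0.0410 over all libraries) and by -0.24 in libraries 1 to 6 (0.0464 and 0.167). The direction of these 4 genes was the same in both ranges, and over all libraries none of the 4 passed within libraries 1 to 6. With number range as a covariate over all libraries the difference was 0.81 for Dusp1 (limma p 0.00768), 0.41 for Dusp6 (0.00915), 0.28 for Dusp5 (0.0107) and -0.29 for Spred1 (0.0158). In males, in separate limma fits, Dusp1 differed by 0.74 (p 0.0369), Dusp6 by 0.29 (p 0.159), Dusp5 by 0.18 (p 0.184) and Spred1 by -0.32 (p 0.113). In females, likewise by limma, Dusp1 differed by 0.88 (p 0.0261) and Dusp6 by 0.54 (p 0.0106). Dusp5 differed there by 0.47 (limma p 0.0389) and Spred1 by -0.32 (limma p 0.0151). Every Trained female was in libraries 1 to 6, but Untrained 17 was not, so the female contrast mixes training with number range. The females of libraries 1 to 6 alone gave the differences above of 0.59, 0.30, 0.20 and -0.24 for these genes, in that order. A larger difference in females than in males can therefore not be read from these fits. With the spread of all 11 libraries, limma called none of the 4 in males (p 0.0861 to 0.390), and in females all but Spred1 (p 0.0587). The shares of all genes called within a sex or a number range are not given here, so these counts have no background. The interaction of sex and training did not pass for any of the 10 genes (lowest unadjusted limma p 0.294), nor did that of number range and training (0.326).

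**Figure D4:**
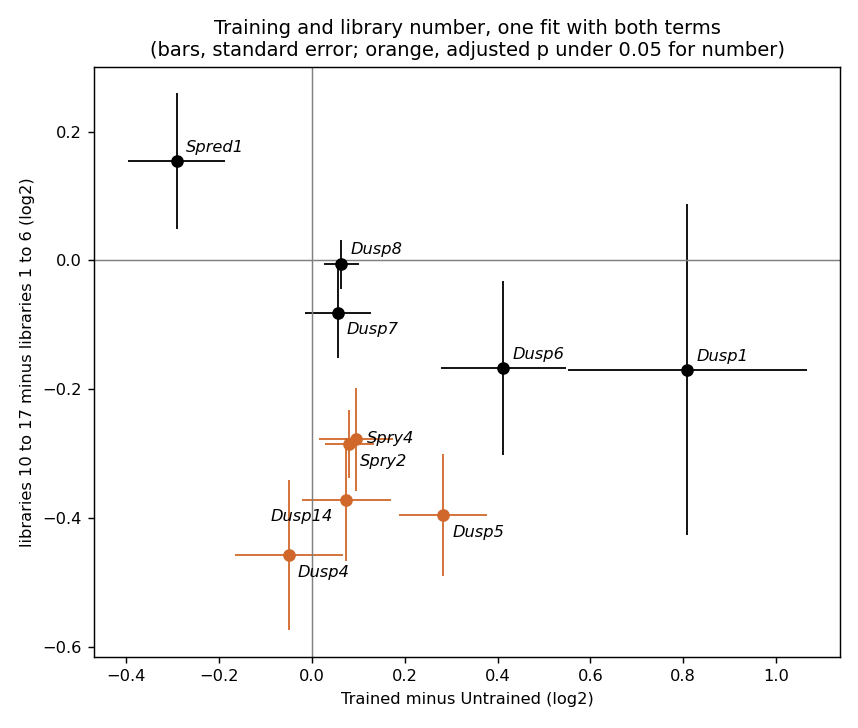
Log2 difference between Trained and Untrained mice (horizontal axis) and between libraries 10 to 17 and libraries 1 to 6 (vertical axis) for each gene, from 1 limma fit with both terms. Bars are standard errors, and orange marks the 5 genes with an adjusted p under 0.05 for number range. Dusp1 (0.81) and Dusp6 (0.41) lay farthest right and Spred1 (-0.29) farthest left, the orange Dusp4, Dusp14, Spry2 and Spry4 lay below 0 near the vertical line, and Dusp5 lay both below and to the right.

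The genes whose library profiles were most like those of the 4 called genes were found by the mean absolute difference of centred log2 values over the 11 libraries, among the 12777 genes averaging 1 FPKM or more. For Dusp1 they were the early-response genes Ier2 (0.131), Junb (0.177) and Fos (0.222), where a gene that did not vary would be at 0.475. Ier2 averaged 15.8 ± 5.25 FPKM in Trained and 8.39 ± 3.14 in Untrained mice (SD, n = 6 and 5), and Junb averaged 141 ± 26.0 in Trained and 72.9 ± 25.4 in Untrained mice. For Dusp6 they were Ier5l (0.0532), Erf (0.0783) and Midn (0.0807), against 0.257 for a flat gene. Erf encodes a transcriptional repressor that ERK phosphorylates, and Ier5l belongs to an immediate early family. Dusp5 was most like Sox8 (0.0840), Armc7 (0.0959) and Rps3a1 (0.0997), against 0.228 for a flat gene. Spred1 was most like Smek1 (0.0644), Wdr44 (0.0657) and Sacm1l (0.0659), against 0.214 for a flat gene. These distances are descriptions over libraries that all genes share.

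Relatives of the 10 genes were then examined. Of 9 other DUSPs that act on MAP kinases, 0 passed an unadjusted limma p of 0.05 in either direction, and the median log2 difference was -0.03. Their differences ran between -0.18 and 0.05. Of 3 other Sprouty and Spred genes measured (Spry3 was below the filter), 0 passed, with a median of -0.08. Spry1, an inhibitor of receptor tyrosine kinase signalling, differed by 0.14 (SE 0.118). Spred2, the closest relative of Spred1, averaged 43.4 ± 5.62 FPKM in Trained and 46.0 ± 6.04 in Untrained mice, a log2 difference of -0.08 (SE 0.0981) against -0.31 for Spred1, and these 2 differences were not compared by a test.

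Among 15 other brakes of RAS-ERK signalling, 2 were higher in Trained mice at an unadjusted limma p under 0.05 and 0 were lower, with a median of -0.00. They were Trib1, a pseudokinase that binds MEK (14.98 ± 2.41 FPKM in Trained and 10.6 ± 3.03 in Untrained mice, log2 difference 0.53, limma p 0.00568), and Pebp1, the RAF kinase inhibitor protein (142 ± 12.5 FPKM in Trained and 124 ± 17.2 in Untrained mice, log2 difference 0.20, limma p 0.0494). Of 22 receptors, adaptors, exchange factors and RAS proteins, 0 were higher and 1 was lower, the BDNF receptor gene Ntrk2 (-0.16, SE 0.0484, limma p 0.0064), with a median of -0.03. Of 18 RAF, MEK, ERK and ERK-activated kinases, 3 were higher (Rps6ka1, Rps6ka4 and Mknk2, by 0.18 to 0.21) and 0 lower, with a median of 0.07. Mapk3, which encodes an ERK, differed by 0.11 (SE 0.0607) and did not pass. Of 12 JNK and p38 kinases and activators, 1 was higher, the p38 activator Map2k3 (0.25), with a median of 0.00.

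Of 9 transcription factors that ERK or its kinases activate, 0 were higher and 1 was lower, Elk1, a partner of serum response factor at CArG boxes (-0.19, limma p 0.0303), with a median of -0.10. Of 13 genes that ERK induces in many cell types, 3 were higher (Fosl2, Egr1 and Klf10) and 1 was lower (Myc), with a median of 0.14. Etv5, which shares FGF-driven expression with Dusp6 and the Sproutys in other tissues, differed by -0.07 (SE 0.0685) and did not pass. Of 16 immediate early genes of neuronal activity, a list that holds genes the study had named from these samples, 12 were higher and 0 lower, with a median of 0.86, among them Fos (1.20, SE 0.250) and Egr1 (0.57, SE 0.213). The difference of Dusp1 (0.83) was close to that median, those of Dusp6 (0.43) and Dusp5 (0.32) were below it, and the other 7 genes were at 0.12 or less. The summed level of those 16 genes was 969 to 1363 FPKM in Trained and 431 to 937 in Untrained mice, highest in Trained 3 and lowest in Untrained 17, which were also the libraries with the highest and the lowest Dusp1. Of 11 genes that glucocorticoids induce, examined because Dusp1 is also known as such a gene, 1 was higher (Per1, 0.40) and 1 was lower (Fkbp5, -0.36), with a median of 0.04.

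Fragments recovered in listed genes numbered between 18.02 and 26.74 M in a Trained library and between 14.38 and 25.54 M in an Untrained library. Markers of excitatory neurons were abundant in every library, with summed levels of 2811 to 3197 FPKM in Trained and 2816 to 3432 in Untrained mice, and 0 of 6 passed an unadjusted limma p of 0.05. Summed oligodendrocyte markers ran between 279 and 1054 FPKM in Trained mice, highest in Trained 3, and between 336 and 599 in Untrained mice, with 0 of 7 passing. Summed choroid plexus markers ran between 1.80 and 171 FPKM in Untrained libraries, highest in Untrained 10, against 1.35 to 5.82 in Trained libraries. Of these, 2 of 4 were lower in Trained mice (Kl and Kcnj13). Of the markers of inhibitory neurons, astrocytes, oligodendrocyte precursors and leptomeninges, 1 each passed (Slc32a1 higher, and Gja1, Gpr17 and Igf2 lower). Of the markers of microglia, endothelium, mural cells, blood and striatal neurons, 0 passed. The log2 difference was above 0 for 0 of 7 mural markers (median -0.21) and 0 of 7 leptomeningeal markers (median -0.36). It was above 0 for 7 of 7 oligodendrocyte markers (median 0.19). The part of any of these markers in the differences of the 10 genes was not tested.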

How the data were processed

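RNA from the ACC of 6 Trained and 5 Untrained mice had been sequenced as stranded mRNA libraries. Per the labels and the study's methods, the authors used Trimmomatic 0.38 for trimming, Bowtie2 2.3.5.1 for alignment (mm10), featureCounts of Subread 1.6.3 for counting and edgeR 3.30.3 for the group comparison. The authors deposited FPKM values for 14974 genes. The annotation and the treatment of strand were not given in the sources used here. Their table of fold changes, p-values and false discovery rates was not used.

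The FPKM gave whole fragments (within 0.05) for 14973 genes, so the library sizes used by the authors could be read back, and were 95.8% to 102.8% of the fragments in listed genes. A spreadsheet had made dates of 23 names, and these genes were kept unnamed. Log2(FPKM + 0.1) of the 14936 genes averaging 0.1 FPKM or more was compared with limma 3.58.1 (R 4.3.3, mean-variance trend), and p-values were adjusted by the Benjamini-Hochberg method over all of them. The pseudocount makes changes of low genes look smaller. Single genes were also compared with a two-sided exact permutation test, whose smallest possible p is 0.00216. Differences are Trained minus Untrained. Limma-voom on the recovered fragments was added after seeing the data. Python 3.11.15, numpy 2.4.6, pandas 2.3.3, scipy 1.17.1 and matplotlib 3.10.9 were used. The limma test and the fragment recovery were tested on simulated data. Gene spans and promoters are from RefSeq, and exon bases and exon overlaps are from GENCODE M21.

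The 10 genes and all lists were chosen with earlier results of these data known. All 10 genes are named. The 3 genes most like each called gene were taken by profile distance, list genes were named where their unadjusted p was under 0.05, and Mapk3, Fos, Egr1, Etv5, Spry1 and Spred2 whatever their values. Each mouse gave 1 library, so p-values measure the spread between mice. Counting errors cover counting only. A further gene of this rule is not reported here.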

Additional observations from a re-analysis of the deposited data

How the results depend on the processing

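No paired analysis was possible because the groups share no replicate numbers. Of 280 values (10 genes under 28 alternatives each), 248 kept their direction and their side of an unadjusted limma p of 0.05, 18 kept their direction and lost the call, and 14 changed sign. The lost calls were of Dusp5 (11), Spred1 (3), Dusp1 (2) and Dusp6 (2). By limma-voom, added after seeing the data, Dusp5 had a p of 0.0567 and the other 3 kept their calls. All sign changes were of genes not called. Without Untrained 16 and 17 together, Dusp7 was at -0.0569, Dusp14 at -0.113, Spry2 at -0.0204 and Spry4 at -0.0604. Dusp4, at -0.00, was at 0.0268 with sex as a covariate, 0.0110 when scaled to plain fragment totals (added after seeing the data), 0.00571 in libraries 10 to 17, 0.123 in females, and between -0.106 and 0.0945 when 1 library was left out.

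Leaving out Untrained 16 and 17 together gave 0 of the 10 genes higher, 0 lower, and 0 past the thresholds of the study. Leaving out 1 library at a time gave 2 to 3 of the 10 genes higher, 1 lower, 0 to 1 past those thresholds and 0 to 1 free of overlap (Dusp8 without Untrained 5, Dusp6 without Untrained 10). In both cases the library left out was the only Untrained library inside the Trained range. The share of all genes free of overlap under the same omission is not given here. Over all genes, 947 were higher and 960 lower with sex as a covariate, and 419 to 1117 were higher and 404 to 1236 lower without 1 library, the most without Trained 14 and the fewest without Untrained 17. The cause of these shifts was not tested. With 5 and 6 mice a group, the 95% confidence interval of Dusp1 spans 0.28 to 1.38, so its size is loosely known. Depth limits Dusp5, Dusp4 and Spry4 most, at 96, 190 and 325 fragments in their lowest library.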
